A study of Mus musculus with 2 samples.

Results

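The genes described here encode the nuclear subunits of respiratory complex I (NADH:ubiquinone oxidoreductase) and the assembly factors that share their name. They were taken as every probe, controls aside, whose gene name on the arrays starts with Nduf. The rule found 56 of 41112 probes, which stand for 38 genes of the 13606 genes tested, and it used no measured value. The RNA came from gastrocnemius (GAS) muscle of male mice at 15 weeks of age on a normal diet, and it was hybridized on 2 two-colour Agilent arrays that compare WT with *Gde5* skKO directly. The *Gde5* skKO mice lack the glycerophosphodiesterase GDE5 (Gpcpd1) in skeletal muscle, through floxed *Gde5* alleles cut by a Cre transgene under the human α-skeletal actin promoter. The WT mice were littermates with floxed *Gde5* alleles and no Cre, on the same C57BL/6 background. Array 1 had WT RNA in Cy3 and *Gde5* skKO RNA in Cy5, and array 2 had the dyes exchanged. The design names 5 mice of each genotype but does not say if their RNA was pooled or shared between the arrays. The study describes array comparisons of muscle after a glucose injection and of muscle from fasted mice, and the labels do not say which of these the arrays here hold. The arrays were therefore read as 2 hybridizations, with no test across mice.

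Complex I passes electrons from NADH to ubiquinone and pumps protons across the inner mitochondrial membrane. Its peripheral arm holds the N module, which oxidizes NADH, and the Q module, which reduces ubiquinone. Its membrane arm holds the proton-pumping subunits, which mitochondrial DNA encodes, and many nuclear accessory subunits that build and stabilize it. Oxidative muscle fibres are rich in the complex, and loss of single subunits or assembly factors is a frequent cause of mitochondrial disease.

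Values are processed signals of each channel, after background subtraction and dye normalization, and log2 ratios of *Gde5* skKO over WT. A gene is represented by its brightest probe, and it was called when the Feature Extraction error model gave p under 0.05 on both arrays with the same direction. That p covers measurement error within an array and not the spread among mice, and turning the signs of 2 arrays could give no two-sided exact p below 0.5. Of the 4 probes of *Gde5*, 3 had mean log2 ratios between -3.18 and -2.93, and the fourth, at -0.26, was the brightest over all channels and so stands for the gene. In WT its signals were 6917 on array 1 and 7610 on array 2. Those of 2 reduced probes were higher in WT, 13030 and 15750 for one and 13390 and 17840 for the other. All 8 skeletal muscle markers were well above background. All 38 Nduf genes were well above background in all 4 channels, none was saturated, and none of their spots carried an outlier mark. The dimmest had a mean log2 signal of 11.4 and the brightest of 16.5.

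No Nduf gene was called higher and none lower in *Gde5* skKO muscle, against 1.58% of all genes called higher and 1.73% called lower. With an unadjusted p under 0.05 from limma's moderated test, 2 members were higher and 0 lower, where 4.25% and 4.27% of all genes were. After Benjamini-Hochberg adjustment limma called 0 of the 38, beside 0.287% of all genes higher and 0.514% lower, and the smallest adjusted p among the 38 was 0.459. The methods' t-test called 0 members at an unadjusted p under 0.05, beside 4.53% of all genes higher and 4.2% lower. The study names that test for 2 groups and gives none for arrays. It was run here unpaired on channel signals, which leaves out that each array holds both genotypes. The mean log2 ratios ran from -0.11 for Ndufa7 to 0.40 for Ndufs1, and 33 of the 38 lay between -0.2 and 0.2, as did 66% of all genes. Among the 2811 genes at least as bright as the dimmest member, that share was 76.2%. The median of the 38 genes was 0.05, a 1.03-fold difference, beside 0.01 over all genes. The mean ratios of the members had an SD of 0.11, those of all genes 0.28, and those of the 2811 bright genes 0.21.

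The depth of 2 arrays bounds what could have been seen. For these genes a log2 ratio had to reach 0.40 to 0.42 in size, or 1.32-fold to 1.34-fold, for its p to fall under 0.05 on an array. A smaller ratio could not pass the error-model call. The error model's 95% intervals around the mean ratios lay within a 1.5-fold difference in either direction for 37 of the 38 genes, and that of Ndufs1 ran from 0.11 to 0.69, above 0. Limma's 95% intervals, which surround its own loess means, lay within 1.5-fold for all 38, with bounds from -0.41 to 0.56. Those of Ndufa11 and Ndufa5 lay above 0. Their width comes from 2 hybridizations that may hold the same RNA. Neither kind of interval covers the spread among mice, so neither bounds the difference between the genotypes across mice. In whole muscle, moreover, fewer cells of a type and less RNA per cell cannot be told apart.

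**Figure D1:**
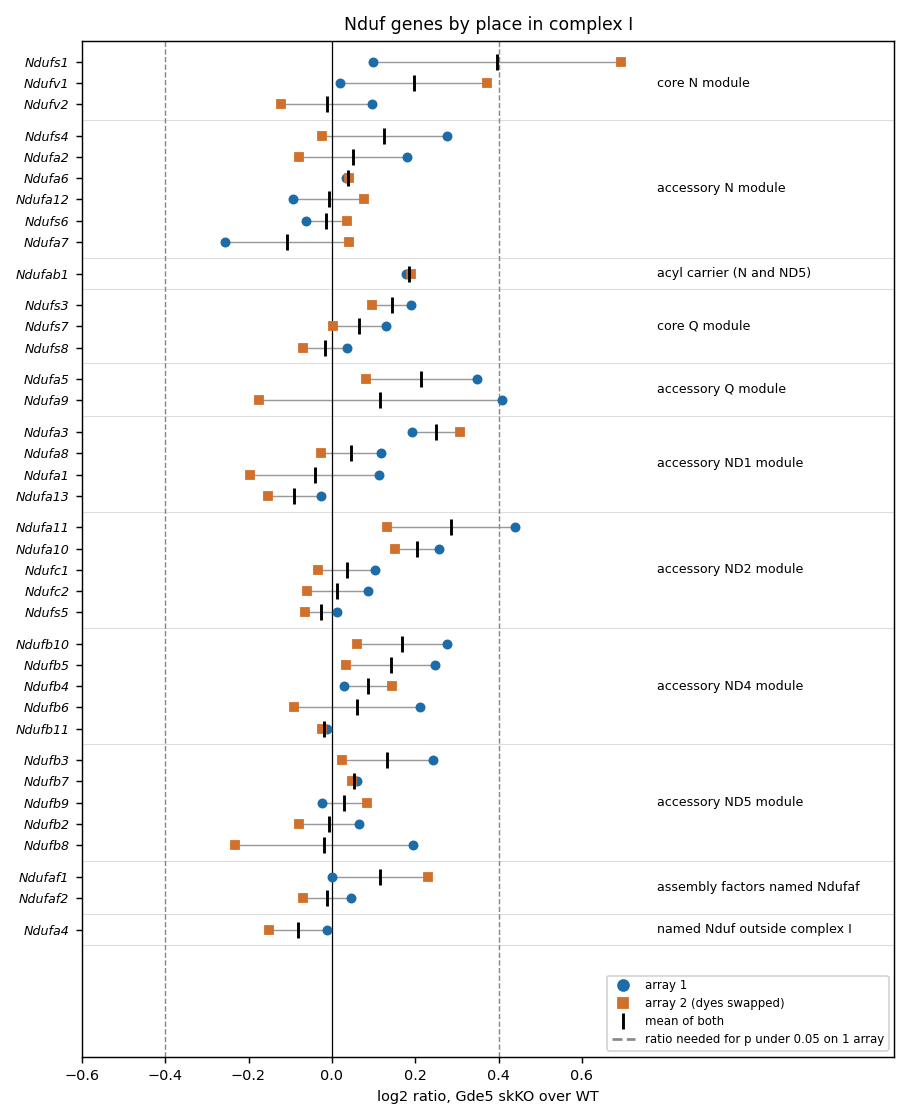
Log2 ratio of Gde5 skKO over WT (x axis) for 37 of the 38 Nduf genes (rows), grouped by place in complex I. Circles are array 1, squares are array 2, black ticks are the mean of both, and dashed lines mark 0.40, the size a ratio needed for p under 0.05 on 1 array. No gene has both points beyond the same dashed line, and Ndufs1 reaches 0.69 on array 2 alone.

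Signals were not scaled between the arrays, and both *Gde5* skKO signals exceeded both WT signals in 11 of the 38 genes and lay below both in 1, Ndufa13, beside 21% and 17.8% of all genes. Ratios were above 0 on both arrays for 16 members, below 0 on both for 3, and opposite for 19, beside 29.2%, 25.3% and 45.6% of all genes. On array 1, 30 of the 38 ratios were above 0 with a median of 0.10, while 51.6% of all genes were above 0. On array 2, 21 of the 38 were above 0 with a median of 0.03, beside 52.4% of all genes. A difference between dyes changes sign when the arrays are turned and one between genotypes does not. Of the 19 members with opposite ratios, 14 were higher on array 1, or 36.8% of the 38, where 22.4% of all genes had that pattern. The median distance between the arrays was an SD of 0.10 for the members and 0.15 for all genes. Taken singly, array 1 gave p under 0.05 for 2 members and array 2 for 1, against 12.2% and 13.9% of all genes.

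**Figure D2:**
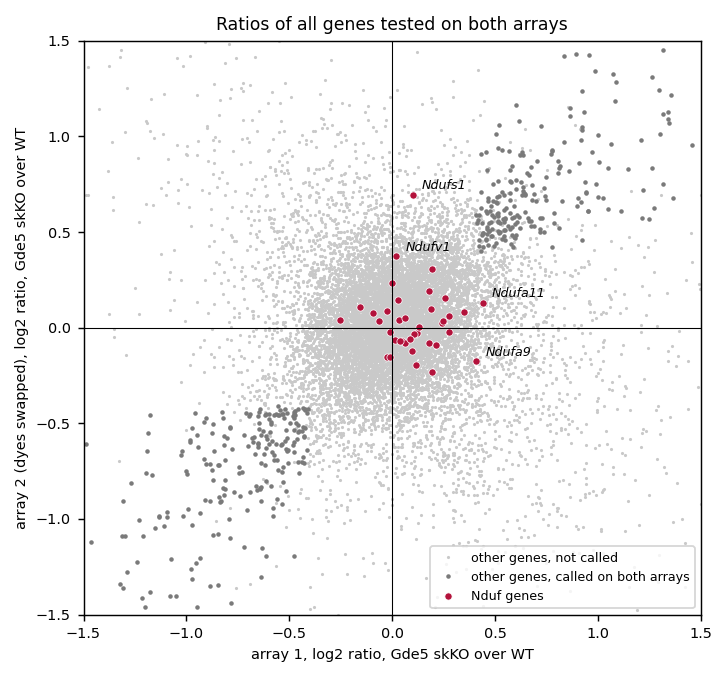
Log2 ratio of Gde5 skKO over WT on array 1 (x axis) and array 2 (y axis) for every gene tested, with the 38 Nduf genes in red and genes called on both arrays in dark grey. The Nduf genes sit near the centre of the cloud, with 30 of the 38 above 0 on array 1 and 21 on array 2. Outside the axes lie 235 genes.

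The N module takes up NADH, and its 3 core subunits held the widest spread. Ndufs1, the largest core subunit and the carrier of several iron-sulphur clusters, had signals of 30393 in *Gde5* skKO and 28377 in WT on array 1, and 37181 and 22983 on array 2. Both *Gde5* skKO signals were above both WT signals, but nearly all of the difference came from array 2. The log2 ratios were 0.10 and 0.69, a mean of 0.40 ± 0.42 (SD, n = 2 arrays), the highest of the 38 genes. The error-model p was 0.628 on array 1 and 0.00116 on array 2, and limma gave 0.13 with an adjusted p of 0.999. The probe lies at chr1:63078062-63078121 on the minus strand of mm8, and a second Ndufs1 probe was not well above background in any channel.

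Ndufv1 binds NADH and the flavin that first accepts its electrons. Its signals were 33044 in *Gde5* skKO and 32585 in WT on array 1, and 36753 and 28378 on array 2. As for Ndufs1, the separation lay on array 2, with log2 ratios of 0.02 and 0.37 and an adjusted limma p of 0.692. Ndufv2, an iron-sulphur subunit beside Ndufv1, had signals of 4463 and 4174 on array 1 and 3887 and 4228 on array 2. There the genotypes overlapped, with log2 ratios of 0.10 and -0.12. The median of these 3 core subunits was 0.20 and none was called.

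The accessory subunits of the N module lay closer to 0. Ndufa7 had the lowest mean log2 ratio of the 38 genes, -0.11 ± 0.21 (SD, n = 2 arrays), from signals of 49372 in *Gde5* skKO and 58932 in WT on array 1, and 59455 and 57784 on array 2. The direction reversed between its arrays, and its other probe went the opposite way on each, with log2 ratios of 0.04 and -0.11. Ndufs4, an accessory subunit whose loss in people and mice causes Leigh-like disease, had log2 ratios of 0.28 and -0.02. Ndufa2, Ndufa6, Ndufa12 and Ndufs6 had means between -0.01 and 0.05. Ndufab1, the mitochondrial acyl carrier protein found in the N module and again in the membrane arm, gave close ratios on both arrays, 0.18 and 0.19. Its signals were 9955 in *Gde5* skKO and 8795 in WT on array 1, and 8403 and 7364 on array 2, and the adjusted limma p was 0.866.

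The Q module reduces ubiquinone. Ndufs7, a core iron-sulphur subunit near the quinone site, had signals of 33162 in *Gde5* skKO and 30310 in WT on array 1, and 31175 and 31124 on array 2. Its log2 ratios were 0.13 and 0.00, with an error-model p of 0.526 on array 1. Ndufs8, which carries a pair of iron-sulphur clusters, had signals of 3898 and 3798 on array 1 and 3056 and 3204 on array 2. Its log2 ratios were 0.04 and -0.07. Ndufs3, a core subunit without a cluster, had signals of 8846 and 7756 on array 1 and 8775 and 8206 on array 2. Both of its *Gde5* skKO signals exceeded both WT signals, and the mean log2 ratio was 0.14 with an adjusted limma p of 0.935.

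Both accessory subunits of the Q module were higher on array 1 than on array 2. Ndufa5 had signals of 73769 in *Gde5* skKO and 57925 in WT on array 1, and 57827 and 54662 on array 2. The WT signal of array 1 thus slightly exceeded the *Gde5* skKO signal of array 2. Its mean log2 ratio was 0.22 ± 0.19 (SD, n = 2 arrays), and limma's unadjusted and adjusted p were 0.0440 and 0.547. Ndufa9, which holds a bound nicotinamide nucleotide, passed on array 1 alone with a log2 ratio of 0.41 and was at -0.18 on array 2.

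The membrane arm carries 19 of the nuclear accessory subunits measured, and their median log2 ratio was 0.05. Next to the ND1 subunit, Ndufa3 had signals of 21804 in *Gde5* skKO and 19083 in WT on array 1, and 21544 and 17398 on array 2. Its genotypes did not overlap, at log2 ratios of 0.19 and 0.31, but limma gave a mean of 0.06 with an adjusted p of 0.999. Ndufa13, also known as GRIM-19, was among the 5 lowest members, with signals of 91640 and 93374 on array 1 and 92353 and 102750 on array 2. Ndufa1, an X-linked subunit, had signals of 47301 and 43704 on array 1 and 39417 and 45174 on array 2. The *Gde5* skKO signal of Ndufa1 was the higher on one array and the lower on the other, and its mean log2 ratio was -0.04. Ndufa8 lay at 0.05.

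Beside the ND2 subunit, Ndufa11 had the second highest mean of the 38 genes. Its signals were 8158 in *Gde5* skKO and 6016 in WT on array 1, and 7750 and 7076 on array 2, so that the genotypes did not overlap. The log2 ratios were 0.44 and 0.13, a mean of 0.29 ± 0.22 (SD, n = 2 arrays), with error-model p of 0.0346 on array 1 and 0.521 on array 2. Limma's 95% interval ran from 0.05 to 0.53, with an unadjusted p of 0.0250 and an adjusted p of 0.459. A second, nearly coincident Ndufa11 probe had ratios of 0.26 and 0.26, but by loess in limma it was at -0.09 on array 1 and 0.51 on array 2. Ndufa10, a subunit related to nucleoside kinases, had signals of 11778 and 9855 on array 1 and 11700 and 10526 on array 2. Here too both *Gde5* skKO signals exceeded both WT signals, at log2 ratios of 0.26 and 0.15 and an adjusted limma p of 0.641. Ndufs5, by contrast, had signals of 56915 and 56397 on array 1 and 57113 and 59717 on array 2, a mean of -0.03. Ndufc1 and Ndufc2 had means of 0.04 and 0.01.

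In the distal membrane arm the 5 measured subunits of the ND4 module had a median of 0.09, from -0.02 for Ndufb11 to 0.17 for Ndufb10. The 5 subunits of the ND5 module had a median of 0.03, from -0.02 for Ndufb8 to 0.13 for Ndufb3. Of these 10 genes, 5 were above 0 on both arrays, 1 was below on both and 4 were opposite. Ndufb1, a small subunit of the ND4 module, was not measured here.

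Assembly factors bind intermediates of the complex and leave the finished enzyme. The rule held Ndufaf1, a member of the assembly complex that builds the ND2 part, and Ndufaf2, which the arrays list as Ndufa12l and which is a relative of Ndufa12. Ndufaf1 had log2 ratios of 0.00 and 0.23, and Ndufaf2 had 0.05 and -0.07. Ndufaf3, Ndufaf4, Ndufaf5, Ndufaf6 and Ndufaf7 carry clone names on the arrays and lay outside the rule. Their means ran from -0.14 for Ndufaf5 to 0.23 for Ndufaf3, and 0 of the 5 were called. Ndufa4 fell under the rule by name but is a subunit of complex IV. Its signals were 25322 in *Gde5* skKO and 25545 in WT on array 1, and 22063 and 24506 on array 2, and its mean log2 ratio of -0.08 was among the 5 lowest.

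**Figure D3:**
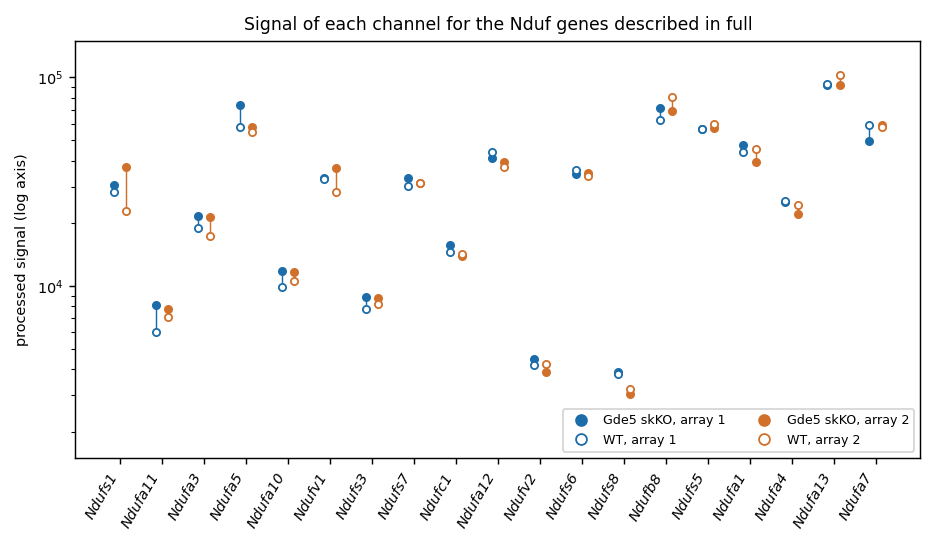
Processed signal (log y axis) in each of the 4 channels for the 19 Nduf genes described in full, ordered by mean ratio from Ndufs1 at 0.40 to Ndufa7 at -0.11. Filled circles are Gde5 skKO, open circles are WT, and lines join the channels of an array. Signals should be compared within a gene, since probes differ in brightness for reasons other than RNA level.

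Probes of the same gene did not always lie on the same side of 0. Of the 38 genes, 25 had 1 probe and 9 had several probes above background, and in 5 of those 9 the probe means had opposite signs (Ndufa1, Ndufa12, Ndufb8, Ndufc1 and Ndufs6). For Ndufb8, in the distal membrane arm, the brightest probe had signals of 71797 in *Gde5* skKO and 62722 in WT on array 1, and 68763 and 80842 on array 2. The other probe was dim, with signals of 111 and 75.7 on array 1 and 81.8 and 66.7 on array 2, and a mean log2 ratio of 0.43 against -0.02 for the bright one. With background correction and loess in limma the dim probe's mean was 0.10. For Ndufc1 the dimmest of 3 probes was well above background in 3 of the 4 channels and had a mean of -0.22, beside 0.04 and 0.00 for the bright ones. Ndufc1's brightest probe had signals of 15691 and 14593 on array 1 and 13990 and 14322 on array 2. The probes of Ndufa1 and Ndufs6 differed by less than 0.1 in their means. Those of Ndufa12, a paralogue of Ndufaf2, had means of -0.01, 0.11 and 0.12. Ndufa12's brightest probe had signals of 41314 and 44041 on array 1 and 39384 and 37308 on array 2. Ndufs6, a zinc-binding subunit, had signals of 34654 and 36186 on array 1 and 34716 and 33859 on array 2.

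Ndufv3, an accessory subunit of the N module that the arrays list as 1500032D16Rik, lay outside the rule and was singled out after its values were seen. Its brightest probe, at chr17:31250335-31250394 of mm8, had signals of 6033 in *Gde5* skKO and 4956 in WT on array 1, and 4468 and 5220 on array 2. The genotypes overlapped there, and the gene was not called. The probe at chr17:31256913-31256972 had signals of 193 and 81.5 on array 1 and 190 and 99.6 on array 2. On that dim probe both *Gde5* skKO signals exceeded both WT signals, with log2 ratios of 1.25 and 0.93 and error-model p of 4.62e-06 and 0.000543. The third probe, at chr17:31256456-31256515, was as dim, with log2 ratios of 0.52 and 0.65 and error-model p of 0.0503 and 0.0366. With background correction and loess in limma these means were 0.30 and 0.12, and 0.03 for the brightest probe. With loess and no background correction they were 0.39 and 0.15, and again 0.03 for the brightest. The ratios of the dim probes were thus larger than that of the brightest under all 3 settings, and smaller by loess than by Feature Extraction.

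**Figure D4:**
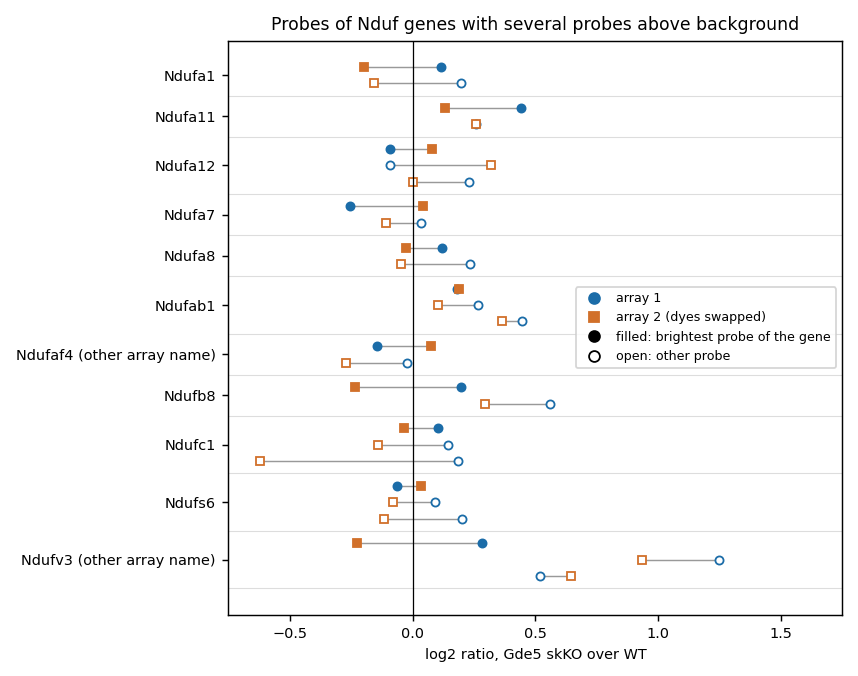
Log2 ratio of Gde5 skKO over WT (x axis) for each probe above background of Nduf genes with several such probes (rows). Circles are array 1, squares are array 2, filled symbols are the brightest probe of a gene and open symbols its other probes. The open probes of Ndufv3 lie at 0.52 and beyond, while its brightest probe has ratios of 0.28 and -0.22.

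The mean ratios of Ndufs1 and Ndufa3 were lower by loess in limma than by Feature Extraction, and their spots share a part of the slide where these methods differed. The slide's rows were cut into 10 bands of equal height. In the last band, loess ratios from limma minus those of Feature Extraction had a mean of -0.19 on array 1 and 0.16 on array 2. These differences have opposite signs and largely cancel in a mean over both arrays. In the other bands the mean differences lay between -0.08 and 0.06 on array 1 and between -0.09 and 0.02 on array 2. The spots that represent Ndufs1, Ndufa3, Ndufs4 and Ndufa6 lie in that band. By loess Ndufs1 was at -0.33 on array 1 and 0.59 on array 2, and Ndufa3 at -0.26 and 0.38. On array 2 Ndufs1 thus fell short of its Feature Extraction ratio, while the band's mean difference was above 0. Ndufs4, in the same band, had a mean of 0.13 by Feature Extraction and 0.10 by loess, with loess ratios of -0.01 on array 1 and 0.22 on array 2. Ndufa6 had a mean of 0.04 by Feature Extraction and -0.04 by loess, with loess ratios of -0.41 and 0.33. The part of slide position in these differences was not tested. After the median of each block of the slide was subtracted, a setting chosen after the values were seen, the means were 0.24 for Ndufs1 and 0.17 for Ndufa3. Ndufa11, in band 5, had a mean of 0.29 by loess and of 0.28 after the block medians were subtracted.

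The other respiratory complexes were measured on the same arrays, from lists of their nuclear subunits. Median log2 ratios were 0.04 over 4 genes of complex II, 0.01 over 9 of complex III, 0.02 over 13 of complex IV and 0.10 over 15 of complex V. None of these 41 genes was called by Feature Extraction, beside 1.58% of all genes called higher and 1.73% called lower. Limma at an unadjusted p under 0.05 gave 2 higher and 0 lower, beside 4.25% and 4.27% of all genes. The extremes of complex III were Cyc1, the cytochrome c1 subunit, at 0.44, and Uqcr10 at -0.20. Cyc1 had signals of 28381 in *Gde5* skKO and 21793 in WT on array 1, and 31054 and 22076 on array 2, so the genotypes did not overlap. It passed on array 2 alone, and its adjusted limma p was 0.161. In complex V the extremes were Atp5g2, a c subunit of the rotor, at 0.30, and Atp5e, the epsilon subunit, at -0.18. In complex IV they were Cox8b at 0.16 and Cox6a1 at -0.06, and in complex II Sdhc at 0.09 and Sdha at 0.00.

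Of the 7 complex I subunits encoded in mitochondrial DNA, ND4L, a small membrane-arm subunit, was measured here. Its signals were 17524 in *Gde5* skKO and 16499 in WT on array 1, and 17296 and 18553 on array 2, which overlap.

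Assembly factors of complex I with other names were read from a list of 14, of which 13 were measured. Their median was 0.00, and 1 of the 13 was called higher and 0 lower, beside 1.58% and 1.73% of all genes. Limma at an unadjusted p under 0.05 gave 3 of them higher (Dmac2, Foxred1 and Tmem126b) and 0 lower, beside 4.25% and 4.27%. The called gene was Dmac2, a factor for the distal membrane arm also known as Atp5sl. It had signals of 1309 in *Gde5* skKO and 929 in WT on array 1, and 1681 and 1250 on array 2. The *Gde5* skKO signal exceeded the WT signal on each array, at log2 ratios of 0.49 and 0.43, and the adjusted limma p was 0.207. Foxred1, a flavin-binding factor, was next at 0.44 with ratios of 0.24 and 0.65, and Tmem126a was lowest at -0.10.

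**Figure D5:**
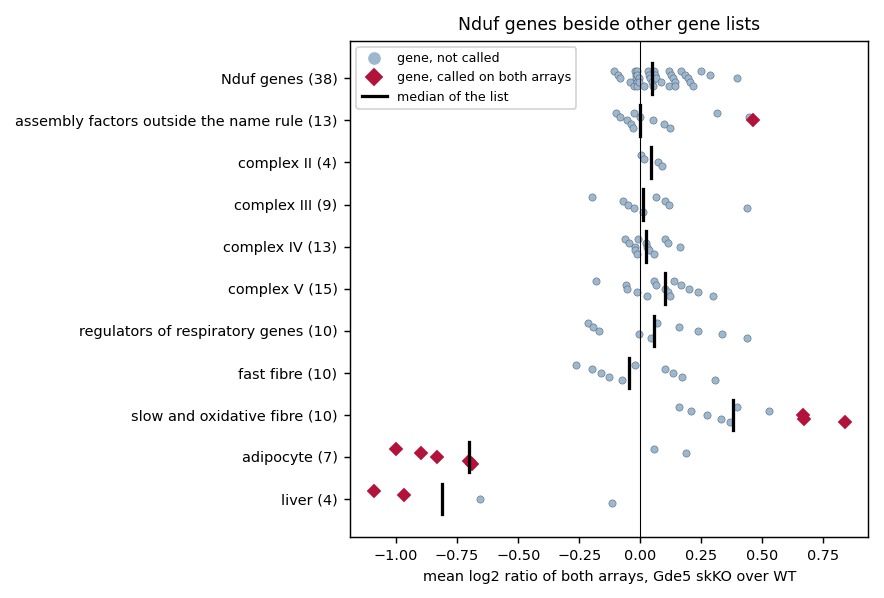
Mean log2 ratio of both arrays, Gde5 skKO over WT (x axis), for the genes of each list (rows, number of genes measured in brackets). Circles are genes not called, diamonds are genes called on both arrays, and black bars are medians. The Nduf genes have a median of 0.05 and no diamond, and slow and oxidative fibre genes have a median of 0.38 with 3 diamonds.

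None of 10 regulators of respiratory genes was called by Feature Extraction, and their median was 0.06. Limma at an unadjusted p under 0.05 gave 2 higher (Ppargc1a and Ppargc1b) and 0 lower, beside 4.25% and 4.27% of all genes. Ppargc1a, the coactivator PGC-1α that drives mitochondrial biogenesis, was the highest at 0.44, with signals of 3717 in *Gde5* skKO and 2500 in WT on array 1, and 3105 and 2521 on array 2. Its genotypes did not overlap, but it passed on array 1 alone and its adjusted limma p was 0.247. Its relative Ppargc1b was at 0.33. Among the DNA-binding factors, Esrra (ERRα) was at 0.16, Nrf1 at 0.00, Gabpa at -0.20 and Yy1 at -0.17. Nrf1 was dim, with signals of 47.2 in *Gde5* skKO and 54.0 in WT on array 1, and 60.4 and 53.1 on array 2. Its log2 ratios were opposite, -0.19 and 0.19, and so were those of Yy1, -0.40 and 0.06. The lowest was Tfb2m, a mitochondrial transcription factor, at -0.21.

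Since these factors act at promoters, the RefSeq promoters of the members were read for their motifs, from 250 bases before to 50 bases after each start site on GRCm38.p6. A promoter was found for 34 of the 38 genes, and Ndufs1 was not among them. The motifs were picked after the ratios were known and were searched on both strands. The NRF1 letters CGCATGCG stood in 2 of the 34, beside 2.07% of all genes with a promoter. The YY1 letters AAGATGGCG stood in 5, beside 1.64% of all genes, the GABP letters CCGGAAGT in 1, beside 4.31%, and the ERR letters TCAAGGTCA in 0, beside 0.466%. The YY1 letters hold ATG and lie 23 to 36 bases after the start site in all 5 genes, where a start codon can share them. The 30 bases around each match are given on the strand of the gene, with the match in capitals, because they are where members share sequence with one another. The GABP match is on the opposite strand and reads in reverse complement.
Ndufa9, YY1, chr6:126849096-126849125, minus strand: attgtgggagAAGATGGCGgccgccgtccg
Ndufc1, YY1, chr3:51408914-51408943, minus strand: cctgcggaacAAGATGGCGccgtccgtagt
Ndufs4, YY1, chr13:114388045-114388074, minus strand: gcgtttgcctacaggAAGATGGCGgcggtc
Ndufs6, YY1, chr13:73328433-73328462, minus strand: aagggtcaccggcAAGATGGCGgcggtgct
Ndufs7, YY1, chr10:80249463-80249492, plus strand: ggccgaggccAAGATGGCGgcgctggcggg
Ndufa11, NRF1, chr17:56717692-56717721, plus strand: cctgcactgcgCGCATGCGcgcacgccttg
Ndufa8, NRF1, chr2:36049329-36049358, minus strand: gtcgctggagaCGCATGCGcagatggtacc
Ndufs3, GABP, chr2:90904703-90904732, minus strand: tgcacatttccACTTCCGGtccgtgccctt

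Of the genes with a match, Ndufs6 alone had a mean log2 ratio below 0, and 24 of all 38 members had a mean above 0. Ndufa9, Ndufc1, Ndufs4, Ndufs6 and Ndufa8 had opposite ratios on the arrays. The 5 genes with the YY1 letters had mean log2 ratios of 0.12 for Ndufa9, 0.04 for Ndufc1, 0.13 for Ndufs4, -0.01 for Ndufs6 and 0.07 for Ndufs7. The first NRF1 match lies 59 bases before the start of Ndufa11, at 0.29, and the other lies 9 bases before that of Ndufa8, at 0.05. Ndufs3, with the GABP letters, was at 0.14. A match of letters is a description of the window and not evidence of binding.

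Markers of fibre types and of other tissues were read on the same arrays. Of 10 slow and oxidative fibre genes, 8 were above 0 on both arrays, and their median log2 ratio was 0.38. Of these 10, 3 were called higher and 0 lower, beside 1.58% and 1.73% of all genes. Limma's adjusted p was under 0.05 for 1 of them, and Myh7, at 0.33, was not called. By qPCR the study found similar fibre type mRNA levels in both genotypes. Myl2, the slow regulatory myosin light chain, was the highest at 0.84, with Tnni1 and Casq2 also called at 0.67 each. Of 10 fast fibre genes 0 were called, and their median was -0.05, from -0.27 for Tnnc2 to 0.31 for Myh1. This list joins Myh2, at 0.13, with Myh1 and Myh4, so the 2 lists do not split oxidative from glycolytic fibres. Of 7 adipocyte genes measured, 5 were called lower, among them the adipokine gene Cfd (adipsin) at -0.90, while Fabp4 was at 0.05 and Lipe at 0.19. Some of these calls rest on dim probes. By loess in limma Retn was at -0.34 instead of -0.83 and Plin1 at -0.33 instead of -0.69, while the brighter Cfd was at -0.82. Of 4 liver genes Mup1 and Ahsg were called lower, and the dim Ahsg was at -1.09 by Feature Extraction and -0.50 by loess. Cidea was called higher of 4 brown adipocyte genes, and Kdr higher of 5 endothelial genes. The endothelial median was -0.09, and 3 of these genes were below 0 on both arrays, with Vwf lowest at -0.29. Leukocyte and blood genes, 3 of each, had no call. Lep, Ucp1, Elovl3, Apoa1, Apoa2, Ttr, Cd68 and Itgam from these lists were not well above background. Oxidative fibres hold more complex I than fast glycolytic ones, and the part of these markers' differences in the Nduf ratios was not tested.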

How the data were processed

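GAS muscle RNA of WT and *Gde5* skKO mice was compared on 2 dye-swapped Agilent arrays on 1 slide. The authors extracted the scans with Agilent Feature Extraction 9.5, per the labels. Each deposited spot has a log10 ratio (Cy5 over Cy3), which the software formed once it had subtracted background, detrended the slide and balanced the dyes, and the deposited p-value of its error model. The deposited intensity of each channel and of its background was read too. The deposited series table holds this log10 ratio with fewer digits. The members, gene lists and motifs were chosen with earlier results of these data known, and the lists were written from general knowledge.

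Ratios were put on the log2 scale with *Gde5* skKO over WT, and spots of 1 probe were averaged. Control spots, outlier spots (164 and 200 on arrays 1 and 2) and spots with a local background over 2 times their signal (11 and 0) were left out. Probes were named through RefSeq tables, 24323 by accession, 6301 by symbol and 2421 by synonym, and 8067 kept the array name. Probe positions follow the array's own annotation (mm8). A gene was tested when a probe was well above background on both arrays, in either channel, and its brightest probe stood for it. The core subunits, the 5 highest and 5 lowest members, called members and genes whose probes go opposite ways were given in full, as were called and extreme genes of each list for the other complexes, assembly factors and regulators. Intervals are limma's unless given as the error model's. The values of 1 member gene are not reported here, though the counts and medians over the 38 genes hold it.

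R 4.3.3 with limma 3.58.1 gave the first alternative, normexp (offset 50) followed by loess. The others were no background correction, the moderated test of limma, an unpaired Student's t-test of log2 channel signals, and p under 0.01. The series table, other filters and probe choices, other member rules, and each array alone were also used. Tables were handled in Python 3.11.15 (pandas 2.3.3, numpy 2.4.6, scipy 1.17.1) and drawn with matplotlib 3.10.9. The error-model call and limma's moderated test were also run on simulated data, and the t-test was not. With 2 arrays the precision of each ratio is limited.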

Additional observations from a re-analysis of the deposited data

How the results depend on the processing

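The count of Nduf genes called lower was 0 under every alternative run. With normexp and loess ratios, no background correction, the series table, block medians subtracted (chosen after the data were seen), other filters on dim probes, saturated spots left out, p under 0.01, or without Ndufa4 (37 genes), the count called higher was 0 as well. Neither count could have moved there, since these settings keep the Feature Extraction p and 0 members passed on both arrays, so they say nothing of their stability. The count called higher could have moved, and was 0, with the mean over probes, adjusted limma p, the methods' t-test before and after adjustment, and members by current symbol (44 genes). It was 2 with limma's unadjusted p (Ndufa11 and Ndufa5), and 1 to 2 when either array was left out: Ndufs1 without array 1, and Ndufa11 and Ndufa9 without array 2. The median log2 ratio of the members was 0.030 without array 1 and 0.098 without array 2, and it lay between 0.04 and 0.06 under the other alternatives, where 0.05 was the value over both arrays. Of 100 values of genes named in full under settings that keep both arrays, 2 moved by more than the SD between arrays, both of Ndufa3, to 0.06 with loess, and 13 had the other sign. That SD is wide for Ndufs1, whose mean of 0.40 became 0.13 with loess. With 1 array left out, 10 of 40 values had the other sign. Each array sets both genotypes against each other, so limma's moderated test of the ratios was itself paired by array. The t-test of channel signals left that pairing out. All members were well above background, and each ratio rests on 2 arrays.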
